A study of Mus musculus with 5 samples.

Results

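Expression of 10 genes of plasma lipoproteins is described here in mouse hepatocytes sorted by a fluorescent probe of fatty acid oxidation: Apoa1, Apoa2, Apoa4, Apoa5, Apob, Apoc1, Apoc3, Apoe, Apoh and Mttp. They were chosen by name, as apolipoproteins of the liver and the protein that loads Apob with lipid, with earlier results of these data known. All 10 were among the 13966 genes of the deposited table and among the 8973 analysed, the analysed genes being those with a mean normalised read count of at least 5.02. Each is given also relative to Alb, the albumin gene, because the RNAs of secreted proteins were higher together in the bezafibrate libraries.

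The 5 groups had 1 library each, all of liver hepatocytes of the outbred mouse stock ICR. Mice given bezafibrate, a fibrate drug that activates peroxisome proliferator-activated receptors (PPARs), gave 3 libraries, of the cells in the negative, positive and high gates of probe signal. Control mice gave the other 2 libraries, of the positive and negative gates. The sources used here do not give the number, sex and age of the mice, the dose, or whether gates of a treatment share a liver. With 1 library a group, no difference below has a replicate check, no p-value is given, and treatment cannot be told apart from mouse. Fold values are plain ratios of normalised read counts with exact Clopper-Pearson 95% intervals from recovered reads, and these cover counting error only. Log2 differences are differences of log2(value + 1.0035), so they understate low genes.

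Apob is the large protein around which the liver builds very low density lipoprotein (VLDL), 1 molecule to a particle, and Mttp, the microsomal triglyceride transfer protein, transfers lipid onto it in the endoplasmic reticulum. Apoa1 and Apoa2 are the main proteins of high density lipoprotein (HDL). Apoe carries particles to hepatic receptors, Apoc1 and Apoc3 slow lipolysis and uptake, and Apoa5 speeds lipolysis by lipoprotein lipase. Fibrates are known to lower plasma triglyceride through PPARalpha, and in rat liver to lower the mRNA of Apoa1 and Apoc3.

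The libraries held 5056884 (control positive) to 7146578 (bezafibrate negative) recovered reads. Rn45s, the ribosomal RNA precursor, held 10.5%, 18.5% and 13.5% of reads in bezafibrate negative, positive and high, against 34.8% and 36.3% in control positive and negative. Of 5 equal classes of transcript length, the shortest had a median log2 difference of 0.37 between bezafibrate and control in the negative gate, and the longest -0.15. The nuclear RNA Malat1 was at 0.666 and 0.839 of control under bezafibrate in the negative and positive gates, and Neat1, also nuclear, at 0.594 and 0.771. Under bezafibrate they were 1.24-fold and 1.28-fold higher in the positive than in the negative gate. These measures moved with the differences below, and their part in them was not tested. All 10 hepatocyte markers were detected in every library, with sums between 49518 and 116564. Kupffer cell and macrophage markers, of which 9 of 14 were in the table, summed to 146.9, 115.7 and 123.4 in bezafibrate negative, positive and high against 77.8 and 76.8 in control positive and negative. Without Slc40a1 those sums were 6.93, 6.46 and 11.9 against 9.92 and 9.44, and Clec4f, the defining Kupffer marker, stayed at or below 1.73. Stellate cell markers, 10 of 11 in the table, summed to 36.4, 33.3 and 47.6 under bezafibrate against 116.4 and 108.8 in control positive and negative. Sinusoidal endothelial markers, 9 of 10, ranged from 22.3 to 38.4, and cholangiocyte markers, 5 of 7, from 37.0 to 51.7. Enterocyte markers, 5 of 6 and listed because the intestine also makes Apoa1, Apoa4 and Apob, summed to 21.5, 18.4 and 22.1 against 11.2 and 9.85. The part of these cell types in the results was not tested.

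The stretches just before the start sites are shown for 6 members. Apob, Apoh and Apoa2 had the largest values under bezafibrate relative to control, and Apoa1, Apoa5 and Apoa4 are the level or lower ones that sit together on chromosome 9. Sequences are from RefSeq, build GRCm38.p6, 5′ to 3′ towards the gene and cut at the start site, with capitals for matches, on either strand, to the FOXA, TATA box and C/EBP motifs spelled out after them.
Apob, chr12:7977498-7977647, plus strand: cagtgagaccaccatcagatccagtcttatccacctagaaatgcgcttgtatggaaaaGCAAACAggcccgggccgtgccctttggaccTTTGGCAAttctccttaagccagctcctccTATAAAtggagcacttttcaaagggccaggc
Apoh, chr11:108395143-108395292, plus strand: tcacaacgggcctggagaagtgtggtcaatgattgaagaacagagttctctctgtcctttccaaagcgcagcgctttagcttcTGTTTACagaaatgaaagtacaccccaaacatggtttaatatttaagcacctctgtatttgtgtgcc
Apoa2, chr1:171224904-171225053, plus strand: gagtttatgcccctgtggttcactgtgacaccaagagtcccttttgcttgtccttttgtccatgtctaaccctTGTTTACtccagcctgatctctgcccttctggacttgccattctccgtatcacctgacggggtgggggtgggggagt
Apoa1, chr9:46228430-46228579, plus strand: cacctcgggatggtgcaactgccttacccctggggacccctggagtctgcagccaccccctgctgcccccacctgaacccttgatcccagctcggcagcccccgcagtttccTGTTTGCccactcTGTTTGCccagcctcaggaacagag
Apoa5, chr9:46268458-46268607, plus strand: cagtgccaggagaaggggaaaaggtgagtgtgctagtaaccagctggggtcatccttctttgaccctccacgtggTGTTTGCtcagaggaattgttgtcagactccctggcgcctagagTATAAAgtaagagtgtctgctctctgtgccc
Apoa4, chr9:46240594-46240695, plus strand: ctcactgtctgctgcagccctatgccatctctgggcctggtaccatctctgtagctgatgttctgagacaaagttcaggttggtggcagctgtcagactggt
The RefSeq table held 12 start sites of 8 members, with windows of 250 bases before and 50 after each start. Both strands of each window were searched. TGTTTNC, the core recognised by FOXA factors, was found at 7 of the 12 windows, among them those of all the genes shown except Apoa4, against 20.5% of 32851 windows of the same length. The 2 windows of Apoa5 lie 25 bases apart and hold the same sites, and 2 of the Apoe windows share 77 bases, so by gene TGTTTNC was found in 6 of 8. The TATA box TATAAA was found in 5 of 12 windows, of 4 genes, against 13.6%, and TTGCNNAA, a C/EBP motif, in 2 against 10.8%. The HNF1 motif GTTAAT was in 1 of 12 windows against 7.10%, that of an Apoe start site not shown. The nuclear receptor core AGGTCA was in 2 of 12 against 16.3%, in windows of Apoa2 and Apoh but outside the stretches shown. The DR1 element, a direct repeat of such cores that can hold AGGTCA, was in 0 of 12 windows against 0.801%, and CAAAGTCCA, a core bound by HNF4, in 0 against 0.475%. TGTTTNC stood in stretches of both the higher genes and the level or lower ones. A match is a run of letters and not a measured binding site.

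Levels are compared between genes per length. Per kilobase of the longest transcript, Apoe had the highest mean of the 10 over the 5 libraries, at 8054 normalised read counts per kb, next to 21858 for Alb. Apoa1 followed at 4267, Apoa2 at 3737 and Apoc1 at 2409. Apoh had 620.8, Apoa5 521.4, Apoc3 517.9 and Apob 511.4, and these genes crossed each other between libraries. Apoa4, at 93.5, and Mttp, at 36.9, were the lowest. Apoa2 stood above Apoa1 per kb in bezafibrate negative, positive and high, at 5224, 4743 and 4257 against 4577, 4210 and 4115. It stood below Apoa1 in control positive and negative, at 2383 and 2078 against 4245 and 4187. The members differed in spread over the libraries. The highest over the lowest library was 1.11 for Apoe and Apoa1 and 1.24 for Apoa5, and it reached 2.51 for Apoa2, 2.79 for Apoh and 2.84 for Apob.

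**Figure D1:**
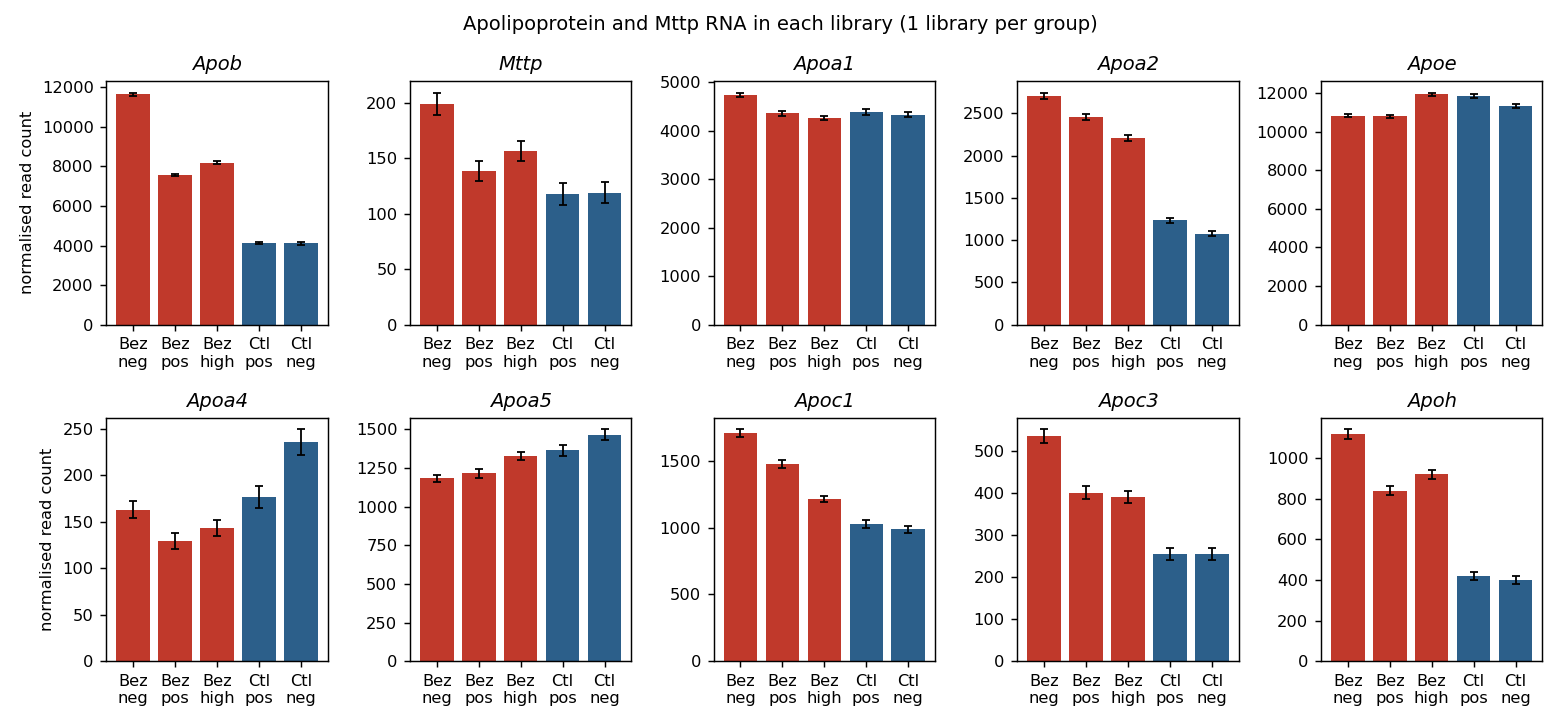
Normalised read counts of the 10 genes in each library, 1 panel a gene with bezafibrate bars left of control bars and error bars for the 95% counting interval. Apob, Apoh and Apoa2 stand higher in all 3 bezafibrate libraries than in both control libraries, while Apoe and Apoa1 stay within 1.11 times.

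The first comparison set bezafibrate against control within a gate, and the members split into higher and level or lower ones. Apob, Apoh, Apoa2 and Apoc3 were at least 2-fold higher in the negative gate, that is 4 of 10 against a background of 10.2% of all genes. In the positive gate 0 of 10 reached 2-fold, with a background of 4.94%. Neither gate had a member at least 2-fold lower, where 5.86% and 2.91% of genes were. Of the members, 7 lay above 0 in the negative gate and 6 in the positive gate, against 51.4% and 50.4% of genes. The median log2 difference of the members was 0.76 and 0.37, against 0.02 and 0.00 over all genes and 0.52 and 0.37 over the other 78 genes with a mean of at least 1000 pseudocounts of 1.0035. Apoa1, Apoa2, Apoa4, Apoc1, Apoc3, Apoe and Apoh fall in the shortest of the 5 length classes, whose medians were 0.37 and 0.25. The part of length in the members' values was not tested.

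Apob (chr12:7977648-8016835, plus strand, mm10) had 11648, 7561 and 8185 normalised read counts in bezafibrate negative, positive and high, against 4132 and 4104 in control positive and negative. Every bezafibrate library was above both control libraries, and in such bulk values fewer cells expressing a gene cannot be told apart from less RNA per cell. How many of all genes separate by treatment in this way was not counted. Such separation, here and elsewhere, is therefore not shown to be particular to the members. The ratio of Apob was 2.84 in the negative gate (2.80 to 2.88) and 1.83 in the positive gate (1.80 to 1.86). Mttp, its lipid loading partner (chr3:138089854-138144968, minus strand), had 198.9, 138.4 and 156.6 against 117.9 and 118.9. Its libraries did not overlap between treatments either, but the ratios were smaller, 1.67 in the negative gate (1.52 to 1.84) and 1.17 in the positive gate (1.05 to 1.31). Reads of Apob per read of Mttp were therefore 58.6, 54.6 and 52.3 under bezafibrate against 35.0 and 34.5 in control positive and negative.

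The main HDL proteins differed from each other. Apoa2 (chr1:171225054-171226379, plus strand) had 2706, 2457 and 2205 normalised read counts in bezafibrate negative, positive and high, against 1235 and 1077 in control positive and negative, with no overlap. The ratio was 2.51 in the negative gate (2.44 to 2.59) and 1.99 in the positive gate (1.93 to 2.05). Apoa1 had 4737, 4357 and 4259 against 4394 and 4333, and here the treatments overlapped as deposited. Of reads outside Rn45s Apoa1 held 0.556%, 0.566% and 0.541% against 0.618% and 0.608%, without overlap. Its ratio was 1.09 in the negative gate (1.07 to 1.11) and 0.992 in the positive gate (0.974 to 1.01). The direction of Apoa1 went below 0 in the negative gate with columns scaled to totals outside Rn45s and above 0 in the positive gate with column totals. Apoa1 over Apoa2, a ratio that no scaling alters, was 1.75, 1.77 and 1.93 under bezafibrate against 3.56 and 4.02 in control positive and negative.

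The small exchangeable apolipoproteins C were higher. Apoc3, an inhibitor of triglyceride clearance, had 534.8, 401 and 390.7 normalised read counts in bezafibrate negative, positive and high, against 255 and 254.4 in control positive and negative. The treatments did not overlap, with ratios of 2.102 in the negative gate (1.97 to 2.24) and 1.57 in the positive gate (1.47 to 1.69). Apoc1 had 1704, 1473 and 1213 against 1029 and 987.3, also without overlap. Its ratios in the negative and positive gates were 1.73 (1.67 to 1.78) and 1.43 (1.38 to 1.48). Apoh, also called beta-2 glycoprotein I, which binds phospholipid (chr11:108343354-108414396, plus strand), with the start site used for its sequence 51.9 kb inside this span, had 1116, 838.7 and 919.3 against 419.5 and 399.7. Its ratios were 2.79 (2.66 to 2.94) and 1.999 (1.90 to 2.11), and no bezafibrate library overlapped a control one.

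Apoe, Apoa5 and Apoa4 were level or lower. Apoe had 10806, 10789 and 11933 normalised read counts in bezafibrate negative, positive and high, against 11846 and 11323 in control positive and negative. The treatments overlapped as deposited. Of reads outside Rn45s Apoe held 1.27%, 1.40% and 1.52% against 1.67% and 1.59%, without overlap. Its ratio was 0.954 in the negative gate (0.944 to 0.965) and 0.911 in the positive gate (0.901 to 0.921), below 1 as deposited and above 1 in both gates with column totals. Apoa5 had 1183, 1216 and 1326 against 1365 and 1467, lower in every bezafibrate library as deposited. Its ratios were 0.807 (0.782 to 0.832) and 0.891 (0.862 to 0.921), of which the second was above 1 with column totals. Apoa4, an apolipoprotein of intestine and liver, had 163.3, 129.2 and 143.1 against 177 and 235.9, without overlap as deposited. With column totals the treatments overlapped, as bezafibrate negative was -0.30 and control positive -0.37 from control negative in log2. Within both gates Apoa4 was lower under all 3 other scalings, at 0.692 (0.638 to 0.751) in the negative gate and 0.730 (0.662 to 0.805) in the positive gate as deposited.

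**Figure D2:**
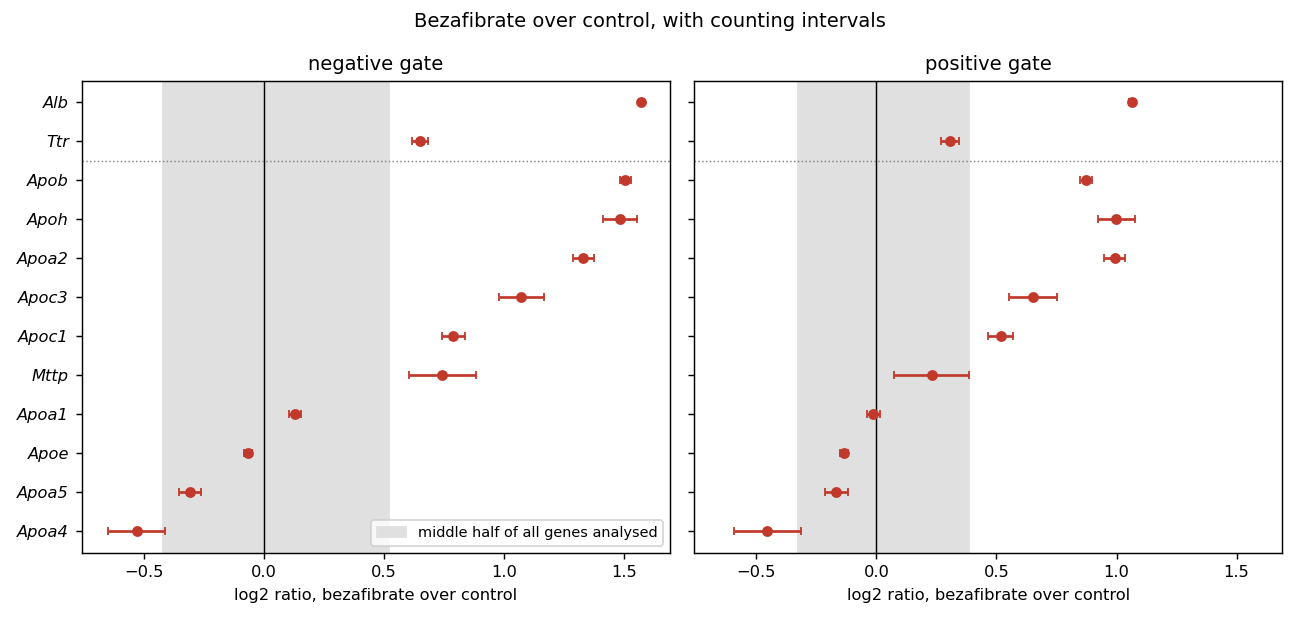
Log2 ratios of bezafibrate over control for the 10 genes, Ttr and Alb in the negative and positive gates, with 95% counting intervals and a grey band from the lower to the upper quartile of all analysed genes. Apob, Apoh and Apoa2 lie between 0.87 and 1.5 in both gates, and Apoa4 lies lowest at -0.53 and -0.45.

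Scaling moved all genes together between treatments. Column totals shifted the median of all genes by 0.22 in the negative gate and 0.20 in the positive gate, and totals outside Rn45s shifted it by -0.24 and -0.11. Members at least 2-fold higher then numbered 5 and 3 with column totals, where 15.9% and 9.05% of all genes were 2-fold higher and 3.02% and 1.49% lower. With totals outside Rn45s they numbered 3 and 0, where 6.12% and 3.74% of all genes were 2-fold higher and 11.7% and 4.08% lower. Of reads outside Rn45s, the 10 genes together held 4.08%, 3.81% and 3.90% in bezafibrate negative, positive and high, against 3.51% and 3.41% in control positive and negative.

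Relative to Alb, which was itself 2.97 and 2.09 times control in the negative and positive gates, all 10 members were lower under bezafibrate in both gates. This placement belongs to Alb as much as to them, since 97.2% and 95.8% of all genes lay below its difference. Apob, Apoh and Apoa2 kept closest to it. Relative to Alb, Apoh in the positive gate was at 0.956, with an approximate counting interval of 0.908 to 1.01 that included 1. Apob was 16.1%, 15.7% and 15.01% of Alb in bezafibrate negative, positive and high, against 17.9% and 16.9% in control positive and negative. Apoh was 1.55%, 1.74% and 1.69% against 1.82% and 1.65%, so its treatments overlapped. Apoa2 was 3.75%, 5.10% and 4.04% against 5.35% and 4.43%, which also overlapped.

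The other members parted from Alb. Apoe was 14.97%, 22.4% and 21.9% of Alb in bezafibrate negative, positive and high, against 51.4% and 46.6% in control positive and negative. Apoa1 was 6.56%, 9.04% and 7.81% against 19.1% and 17.8%, and Apoa5 1.64%, 2.52% and 2.43% against 5.92% and 6.04%. Each of these was lower in every bezafibrate library than in either control library. Apoa4 was 0.226%, 0.268% and 0.262% against 0.767% and 0.971%, the largest log2 difference of the 10 relative to Alb, -2.10 in the negative gate and -1.51 in the positive gate. Mttp, at 0.276%, 0.287% and 0.287% against 0.511% and 0.489%, was -0.83 in both gates. Apoc1 was 2.36%, 3.06% and 2.23% against 4.46% and 4.06%, and Apoc3 0.741%, 0.832% and 0.716% against 1.11% and 1.05%. Mttp, Apoc1 and Apoc3 therefore had higher normalised read counts under bezafibrate and lower values per Alb.

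**Figure D3:**
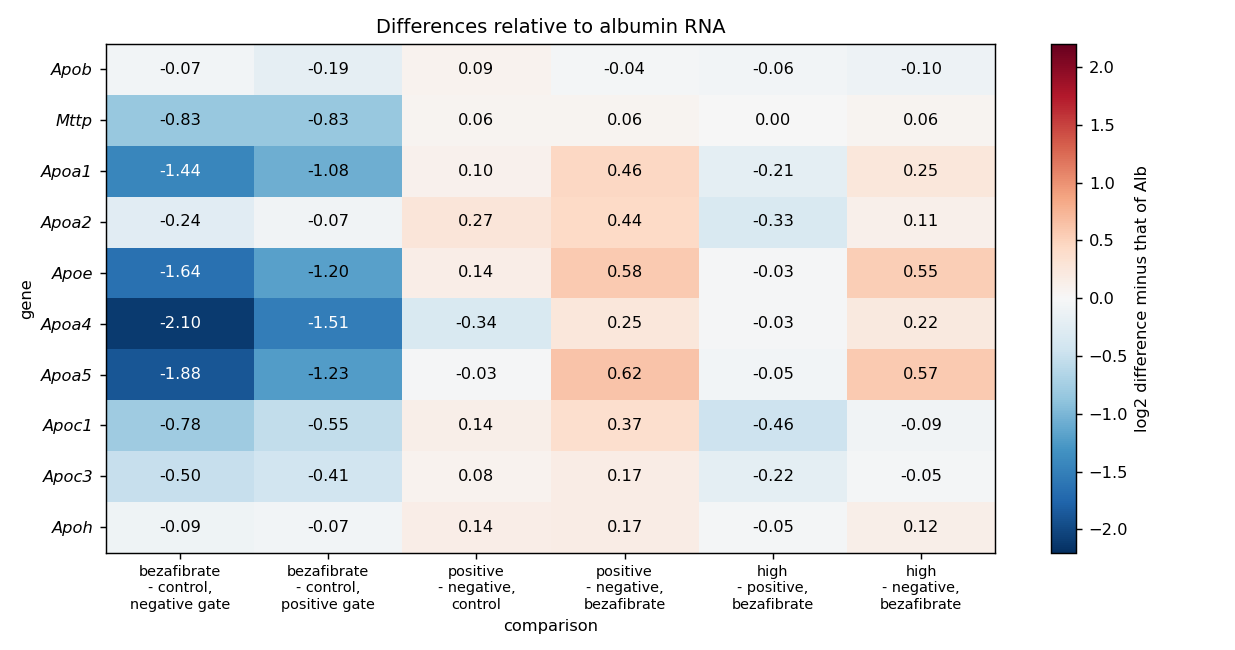
Log2 differences of each gene minus that of Alb, with 1 row a gene and 1 column a comparison, each cell giving its value and its colour the sign and size. In the columns of bezafibrate minus control Apob, Apoh and Apoa2 lie between -0.24 and -0.07, and Apoa4 has the lowest values, -2.10 and -1.51.

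The choice of Alb set this picture in part. Relative to Ttr, the transthyretin gene and another secreted liver protein, 6 members lay above and 4 below in the negative gate, and 5 above and 5 below in the positive gate. Relative to the median of 35 other secreted proteins, which was 1.04 and 0.68 as a log2 difference, 4 lay above in the negative gate and 3 in the positive gate. Apob, Apoh and Apoa2 were above this median in both gates, and Apoc3 in the negative gate. Of those 35 genes, 18 and 7 were at least 2-fold higher, against 10.2% and 4.94% of all genes, and 0 were lower, against 5.86% and 2.91%. Trf, transferrin, was 1.35-fold and 1.01-fold higher, complement C3 1.91-fold and 1.42-fold, and Hrg, histidine-rich glycoprotein, 3.14-fold and 2.16-fold, while A1bg was at 0.688 and 0.559 of control.

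The second comparison set the positive gate against the negative gate. In control mice the members hardly differed. In either direction 0 of 10 reached 2-fold, where 0.145% of genes passed 2-fold upwards and 0.189% downwards, and the members' median was 0.01, as over all genes. Above 0 lay 7 members, against 52.1% of genes. Apoa4 had the largest ratio away from 1, at 0.750 (0.685 to 0.821), with 177 normalised read counts in the positive gate and 235.9 in the negative gate. Apoa2 was 1.15-fold higher in the positive gate (1.10 to 1.19) and Apoa5 was at 0.930 (0.899 to 0.962). Counting intervals included 1 for Apob, Apoa1, Apoc3, Apoh and Mttp, which leaves differences inside those intervals not detectable at this depth.

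Between the same gates under bezafibrate, the members' median was -0.27 against -0.01 over all genes. The median was -0.23 over the other 78 genes with a mean of at least 1000 pseudocounts. Over the 35 other secreted proteins it was -0.40, and 0 of them lay above 0. In the positive gate 9 members were lower as deposited, against 51.6% of genes, but Apoe was above 0 with all 3 other scalings and Apoa1 and Apoa2 with totals outside Rn45s. At 2-fold there were 0 members, with 0.134% of genes higher and 0.123% lower at that size. Apob was at 0.649 of the negative gate (0.642 to 0.656), a value that 2.02% of genes lay below. Mttp was at 0.696 (0.639 to 0.757), Apoc3 at 0.750 (0.713 to 0.788) and Apoh at 0.751 (0.726 to 0.778). Apoe, at 0.998 (0.988 to 1.01), and Apoa5, at 1.03 (0.996 to 1.06), had intervals that included 1. Alb was at 0.668, so that 9 members were higher in the positive gate relative to it and Apob was not. Among the 9, Mttp was at 1.04 relative to Alb, with an approximate counting interval of 0.958 to 1.13 that included 1. The difference of Alb was itself low, with 2.70% of genes below it.

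Apob, Mttp and Apoh were higher in the high gate than in the positive gate, without reaching their values of the negative gate. Between high and positive gates 0 members reached 2-fold, with 0.0669% of genes higher and 0.0780% lower, and 6 members lay above 0 against 49.9% of genes. Apob was 1.08-fold higher in the high gate (1.07 to 1.10), Apoh 1.10-fold (1.06 to 1.14), Apoe 1.11-fold (1.10 to 1.12) and Mttp 1.13-fold (1.04 to 1.24). Apoc1 was at 0.824 (0.800 to 0.848) and Apoa2 at 0.898 (0.878 to 0.918), lower under each scaling. Over the 3 bezafibrate gates Apoc1 was highest in the negative and lowest in the high gate under each scaling. As deposited Apoa2, Apoa1 and Apoc3 had the same order, which Apoa2 and Apoa1 lost with totals outside Rn45s and Apoa1 and Apoc3 with column totals. In the high gate 8 members lay below their value in the negative gate, as did 53.0% of genes. Of the 35 other secreted proteins, 3 lay above theirs. At 2-fold there were 0 members, with 0.111% of genes higher and 0.156% lower. Apob was at 0.703 (0.695 to 0.710), Apoc1 at 0.712 (0.693 to 0.731) and Apoc3 at 0.730 (0.696 to 0.766). Apoa5, at 1.12 (1.09 to 1.15), and Apoe, at 1.10 (1.09 to 1.12), were the 2 members above. Alb was at 0.755 of the negative gate, with 7.77% of genes below its difference. Relative to Alb 7 members lay above and 3 below.

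**Figure D4:**
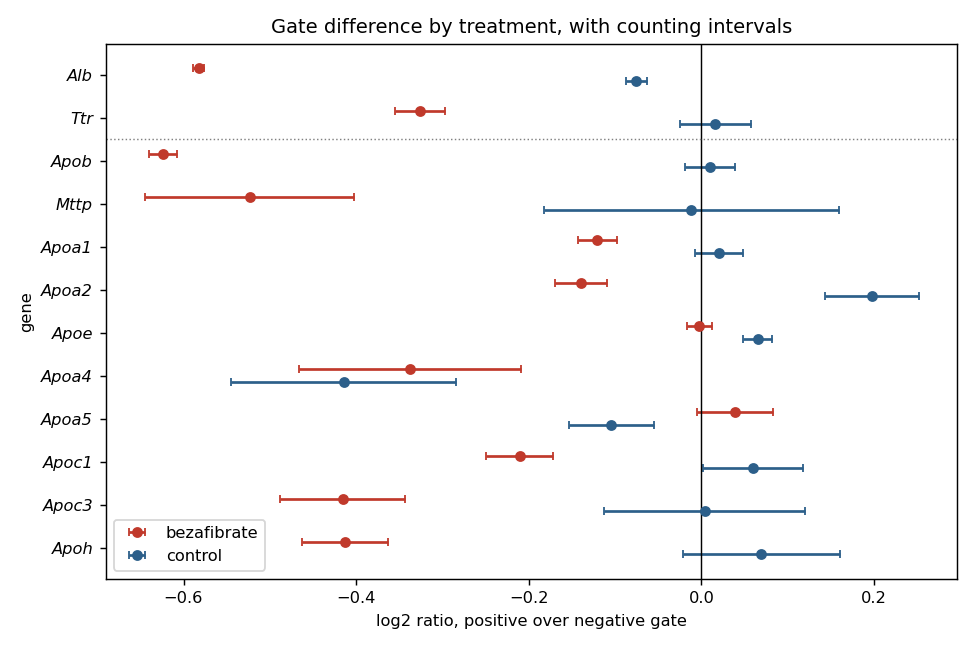
Log2 ratios of the positive over the negative gate under bezafibrate and in control for the 10 genes, Ttr and Alb, with 95% counting intervals. In control all members but Apoa4, at -0.41, lie within 0.20 of 0, and under bezafibrate Apob has the lowest member value, -0.62.

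The gate by treatment difference, that is positive minus negative under bezafibrate less the same in control, was below 0 for 8 of 10 members, against 53.1% of genes, with a median of -0.30 against -0.03 over all genes. Apob had -0.63 with a counting standard error of 0.02, below all but 6.03% of genes. Mttp had -0.51 (counting standard error 0.11), Apoh -0.48 (0.05), Apoc3 -0.42 (0.07), Apoa2 -0.34 (0.03) and Apoc1 -0.27 (0.04). Apoa5 had 0.14 and Apoa4 0.08. Apoa1 at -0.14 and Apoe at -0.07 lay above 0 with totals outside Rn45s, a scaling that shifted the median of all genes by 0.14. Alb had -0.51, and Rn45s moved the other way between the bezafibrate gates, with 18.5% of reads in the positive gate and 10.5% in the negative gate. Whether it bears on the gate difference was not tested.

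Neighbouring genes did not all share a direction, though some adjacent ones did. As deposited, Apoc1, Apoc4 and Apoc2 were all higher under bezafibrate in both gates, and Apoa4, Apoa5, Zpr1 and Bud13 all lower. In mm10 the Apoa1 cluster lies on chromosome 9, with Apoa1 at chr9:46228580-46230466 on the plus strand. The start of Apoc3, on the minus strand, is 7.06 kb from that of Apoa1, that of Apoa4 12.1 kb and that of Apoa5 40.1 kb. Within this span Apoc3 was at 2.102 times control under bezafibrate in the negative gate, Apoa1 at 1.09 times, and Apoa5 and Apoa4 were at 0.807 and 0.692 of control. Of the 10 genes analysed in and around the cluster, the negative gate had 1 at least 2-fold higher and 1 lower, and the positive gate 0, with 1 of 10 near the 10.2% and 5.86% of all genes. The lower one was Zpr1, next to Apoa5, at 0.366 and 0.534 of control. In the Apoe cluster on chromosome 7, with Apoe at chr7:19696109-19699188 on the minus strand, Apoc1 lies 6.53 kb, Apoc4 17.7 kb and Apoc2 21.2 kb downstream. Apoe was at 0.954 and 0.911 of control, while Apoc1 was 1.73-fold and 1.43-fold, Apoc4 1.75-fold and 1.48-fold, and Apoc2 1.93-fold and 1.84-fold higher in the negative and positive gates. Tomm40, on the other side of Apoe, was at 0.722 and 0.711. Of the 8 genes analysed in and around it, 1 was past 2-fold upwards in the negative gate, Clptm1 at 2.04, near the 10.2% of all genes, and 0 in the positive gate, where Clptm1 was at 1.25. Apoe over Apoc1 was 6.34, 7.33 and 9.84 in bezafibrate negative, positive and high, against 11.5 in either control library.

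**Figure D5:**
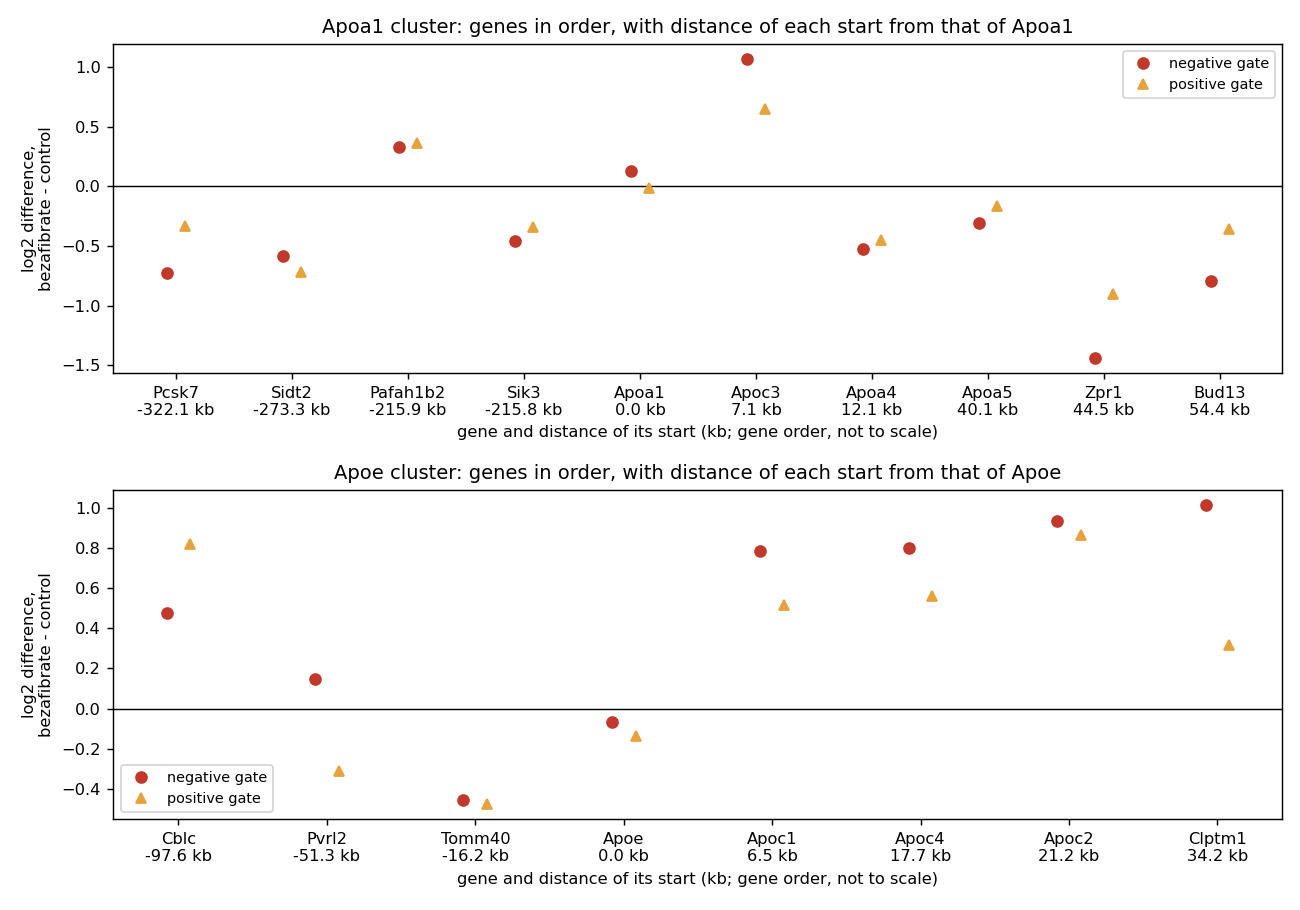
Log2 differences of bezafibrate minus control in the negative and positive gates for the analysed genes of the Apoa1 and Apoe clusters, in gene order, with the distance of each start from that of Apoa1 or Apoe in kb. Apoc3 at 7.06 kb and Apoa4 at 12.1 kb lie on opposite sides of 0 in both gates.

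The genes of the lists that follow are set beside all genes, of which 10.2% passed 2-fold upwards and 5.86% downwards in the negative gate, against 4.94% upwards and 2.91% downwards in the positive one. Of 12 other apolipoproteins analysed out of 17 listed, 5 were at least 2-fold higher in the negative gate against 10.2% of all genes, 4 in the positive gate against 4.94%, and 0 were 2-fold lower. Above 0 lay 10 and 11 of the 12, against 51.4% and 50.4% of all genes, and their median log2 difference was 0.94 and 0.89. Pon1, paraoxonase of HDL, had 186, 108 and 119 normalised read counts in bezafibrate negative, positive and high, against 41.4 and 38.2 in control positive and negative. Clu, clusterin or Apoj, was 2.33-fold and 1.90-fold higher in the negative and positive gates, and Saa4, a constitutive serum amyloid A of HDL, 1.92-fold and 2.03-fold. Apol7a, whose reads may be shared with near-identical Apol7 genes, was the lowest of the list on average at 0.853 and 0.926 of control.

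The machinery of VLDL assembly and export had, of 24 genes analysed out of 25 listed, 6 past 2-fold upwards and 1 downwards in the negative gate, against 2 and 1 in the positive one, with medians of 0.44 and 0.19. The 2 and 1 of 24 in the positive gate are near the 4.94% and 2.91% of all genes. P4hb, protein disulfide isomerase and the partner subunit of Mttp, was 1.41-fold and 1.15-fold higher, next to Mttp at 1.67 and 1.17. Sort1, sortilin, had 18.3, 13.6 and 15.7 normalised read counts in bezafibrate negative, positive and high, against 5.82 and 2.05 in control positive and negative. Sar1b, the coat protein GTPase known for exporting large lipoproteins, was picked out after its values were seen, at 51.7, 49.3 and 50.9 against 13.6 and 14.8. Apobec1, the enzyme that edits Apob mRNA to give the short Apob48 form in mouse liver, was the lower one, with 21.1, 20.8 and 21.1 against 73.5 and 63.6. That is 0.331 of control in the negative gate (0.271 to 0.402) and 0.283 in the positive gate (0.230 to 0.347). The deposited values are per gene, and editing itself was not analysed here.

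Of HDL and plasma lipid enzymes, 15 of 18 listed were analysed, with 4 past 2-fold upwards and 2 downwards in the negative gate, against 3 and 1 in the positive one, and medians of 0.36 and 0.43. The shares of all genes were 10.2% upwards and 5.86% downwards, against 4.94% and 2.91%. Pltp, the phospholipid transfer protein, was at 0.420 and 0.282 of control on few reads, with 5.87, 5.83 and 8.13 against 20.7 and 14.0 normalised read counts. Abca1, which lipidates Apoa1, was at 0.925 and 0.858, and Furin, a proprotein convertase, at 1.10 and 0.959. Receptors and uptake proteins had medians of 0.01 and 0.00 over 14 genes analysed of 17 listed, with 1 upwards and 1 downwards past 2-fold in the negative gate, against 1 and 0 in the positive one, near the shares of all genes. Lrp1, the receptor of Apoe-bearing remnants, was at 1.01 and 0.935, and Sdc1, a proteoglycan that also takes up remnants, at 0.776 and 0.759. Cd36, a fatty acid carrier, had 11.5, 6.15 and 7.86 against 1.29 and 0.411, too few reads for a narrow ratio, and Snx17, a sorting nexin that recycles such receptors, was at 0.433 and 0.647 of control.

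Transcription factors known to act on these genes had medians of -0.15 and -0.14 over 25 genes analysed of 26 listed, with 1 upwards and 2 downwards past 2-fold in the negative gate, against 2 and 1 in the positive one. These too are near the shares of all genes. Ppara itself had 608.6, 657.9 and 655.8 normalised read counts in bezafibrate negative, positive and high, against 289.3 and 284.4 in control positive and negative. Mlxipl, the carbohydrate response factor ChREBP, was at 0.704 and 0.865 of control, and Lpin1, lipin 1, a phosphatidate phosphatase that also acts as a coactivator, at 0.264 and 0.342. Hnf4a, picked out after its values were seen as a regulator of most of the 10 genes, was at 0.618 and 0.680. Of 18 PPARalpha targets of fatty acid oxidation, 12 passed 2-fold upwards and 1 downwards in the negative gate, against 8 and 2 in the positive one, beside 10.2% and 5.86%, and 4.94% and 2.91%, of all genes. Ehhadh, a peroxisomal enzyme of beta-oxidation, was 24.9-fold and 14.5-fold higher and Cyp4a14, an omega-hydroxylase, 7.43-fold and 5.27-fold, both beyond the largest ratio of the 10 members. Fgf21, a hormone of the fasted liver, was at 0.255 (0.148 to 0.424) and 0.379 (0.233 to 0.603) of control, on few reads.

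The genes with the profiles most like the members were sought among 1118 genes, by the root mean square distance of centred log2 profiles over the 5 libraries. Apoa1 was nearest to Eif4g1, a translation initiation factor, at 0.0085. Apob was nearest to Car3, a carbonic anhydrase, at 0.030 and to Gc, the vitamin D binding protein, at 0.036, with Alb at 0.088. Apoh was nearest to Atp5b, an ATP synthase subunit, at 0.036, and Apoa2 to Acadm, the medium-chain acyl-CoA dehydrogenase, at 0.060. Apoa5 was nearest to Creb3l3, the factor CREBH, at 0.031, Apoe to Lonp1, a mitochondrial protease, at 0.030, and Apoa4 to Ppp2r5a, a phosphatase subunit, at 0.10. Apoc3 was nearest to Gjb1, a gap junction protein, at 0.029, Apoc1 to Rdx, radixin, at 0.067, and Mttp to Rpn2, a subunit of the oligosaccharyltransferase, at 0.048. Among themselves, Apob and Apoh were the nearest partners of each other at 0.094, and Apoe and Apoa5 at 0.087, over 5 libraries that share their treatment and their Rn45s share.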

How the data were processed

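Per the labels' protocols, a FFPE-tissue kit gave total RNA from the sorted cells, and directional libraries were made after rRNA depletion and read from both ends. The build was mm10 and the tools were RSEM, Bowtie2, edgeR and Trimmomatic 0.36, per the submitters' processing notes; the sources used here do not give their roles, the annotation or the normalization. The authors deposited 1 table of normalised signal. A column's smallest nonzero value was taken as 1 read, and 100% of values then came out whole to within 0.001 reads. Symbols matched 1 gene of GENCODE M21 (GRCm38, also called mm10) for 95.8%.

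From these values, log2 differences were taken with a pseudocount of 1.00351, over genes with a mean of at least 5 pseudocounts, and genes were counted at 2-fold. Intervals are exact Clopper-Pearson at 95% for counting error only, and without molecular identifiers 1 molecule can give several reads. The members and all 10 other lists were chosen with earlier results of these data known. Members were all named; of each other list, the 2 most abundant members and the 2 with the largest and smallest average treatment difference, and for likeness the 3 nearest genes with a mean of at least 100 pseudocounts, of which the nearest is printed, with Gc added. Genes outside this rule are said to be chosen after their values were seen, except cluster neighbours. A result that this rule takes is not reported here. An additive fit of gate and treatment on recovered reads was added after seeing the data, with edgeR 4.0.16 in R 4.3.3. The other steps, tested on simulated data, used pandas 2.3.3, numpy 2.4.6, scipy 1.17.1 and matplotlib 3.10.9 in Python 3.11.15.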

Additional observations from a re-analysis of the deposited data

Results flagged for a closer look

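Apoa2 and Apoc1 differed between the gates in opposite directions under the treatments, with counting intervals clear of 1 in each. Apoa2 had a positive over negative gate ratio of 0.908 (0.889 to 0.927) under bezafibrate and 1.15 (1.10 to 1.19) in control. For Apoc1 the ratio was 0.864 (0.841 to 0.888) under bezafibrate and 1.04 (1.001 to 1.09) in control. In control 81.6% of genes lay below the Apoa2 value and 60.3% below that of Apoc1. With 1 library a group, the difference between treatments was not tested, and the Apoa2 value under bezafibrate lay above 1 with totals outside Rn45s.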

How the results depend on the processing

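No paired analysis was possible because each group has 1 library, which leaves no replicate pairs to block on. Values below are medians of the 10 members' log2 differences unless named otherwise. Column totals gave 0.99 for bezafibrate minus control in the negative gate and 0.58 in the positive gate, 0.17 for high minus positive and -0.22 for high minus negative gates. Totals outside Rn45s gave 0.50 and 0.26 for the treatment, -0.13 for positive minus negative and -0.17 for high minus negative gates under bezafibrate, and -0.16 for the gate by treatment difference. Totals without the 100 highest genes gave -0.23 for high minus negative gates. Relative to Ttr, in place of Alb, the medians were 0.11 and 0.067 for the treatment in the negative and positive gates against -0.81 and -0.69, so this sign turned. They were -0.0012 for positive minus negative gates in control, 0.053 for the same gates under bezafibrate and 0.16 for high minus positive gates. Relative to the median of other secreted proteins they were -0.28 and -0.30 for the treatment, 0.13 for positive minus negative and -0.00685 for high minus negative gates under bezafibrate. Why these values moved was not tested.

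Counts of genes at least 2-fold different were 1445 and 704 for the treatment in the negative and positive gates. They were 874 and 405 with the mean at 20 pseudocounts or more and 943 and 411 with 5 times the pseudocount. With no filter they were 2007 and 1086, and with column totals 1702 and 946. For the positive against the negative gate the count in bezafibrate was 23, with 92 unfiltered, 8 at 20 pseudocounts and 14 with 5 times the pseudocount, and in control 30, with 232, 3 and 3. For high against positive gates it was 13, with 133, 4 and 8, and for high against negative gates 24, with 133, 7 and 9. No member's difference moved beyond its counting interval with 0.5 or 5 times the pseudocount. The additive edgeR fit had 1 residual degree of freedom, and its error is the gate by treatment difference itself. It uses the negative and positive gates of a treatment as replicates of that treatment. It cannot separate treatment from mouse, so its calls are not given as results. Depth limits Mttp and Apoa4 most among the members, with the widest counting intervals.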
